A study of Mus musculus with 9 samples.

Results

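To describe the keratin network of mouse mammary epithelial cells edited at *Vangl2*, the read counts of 9 keratin genes were examined in *WT*, *KD1* and *KD2* cultures. The genes were taken by name from the count table, which lists 55228 genes in all, and were chosen as the keratins commonly used to tell basal from luminal mammary cells: *Krt5*, *Krt14*, *Krt15*, *Krt17* and *Krt6a* on the basal or stress-inducible side, and *Krt7*, *Krt8*, *Krt18* and *Krt19* on the luminal side. RNA was sequenced from HC11 cells, a line derived from the mammary gland of an inbred BALB/C mouse that can be induced to differentiate and make milk proteins. The unedited line (*WT*) was sequenced in 3 cultures, as were *KD1* and *KD2*, labelled *Vangl2* knockout 1 and 2. The *KD* lines were made by CRISPR/Cas9 with different guides and a repair template that adds stop codons to *Vangl2*, which encodes a planar cell polarity membrane protein. Each line was grown out from a single colony, so the edit and the choice of clone cannot be told apart. All 9 cultures were undifferentiated cells in RPMI-1640 containing insulin (5 µg/mL), EGF (10 ng/mL) and 10% FBS, with no other treatment, and were harvested at 90% confluence. Nothing in the labels says whether replicates were separate cultures, so p-values measure only the spread between these samples, which may be technical.

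Keratins are the intermediate filament proteins of epithelial cells. A filament is built from pairs that join 1 acidic type I chain with 1 basic type II chain, and pairs are characteristic of cell types. In the mammary gland, KRT5 (type II) and KRT14 (type I) form the network of basal cells and KRT8 (type II) and KRT18 (type I) that of luminal cells, while KRT6A, KRT16 and KRT17 are known from activated or wounded epithelium.

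Total counts ranged from 20030410 to 25505223 in *WT*, from 25514438 to 27896032 in *KD1* and from 19231428 to 28360592 in *KD2*. A floor of 3 counts, the limit that a count of 0 allows, corresponded to 0.0998 to 0.154 CPM (counts scaled to library size, adjusted here by the TMM method), and covers counting error only. Replicates were unequally close. The chi-square of paired counts per degree of freedom was 3.38 between *WT* replicates 2 and 3 but 13.1 and 10.7 when either was set against replicate 1, and 1.74 between *KD2* replicates 1 and 2 but 17.4 and 22.1 when either was set against replicate 3. *WT* replicate 1 and *KD2* replicate 3 therefore stood apart from the other cultures of their lines, and results below whose call or sign changes without them are given with both values or in the closing part on processing. *Vangl2* itself had 66, 99 and 86 counts in *WT*, 75, 48 and 69 in *KD1* and 90, 118 and 90 in *KD2*, with log2 fold changes of -0.63 in *KD1* (adjusted p = 0.0058) and 0.05 in *KD2* (adjusted p = 0.81). Transcripts that carried the inserted stop codons would still be counted over the whole gene, so these counts do not check the labels. Whether the transcripts carry the insertion was not examined here. For the protein, the paper reports immunoblots with little to no VANGL2 in *KD1* and strongly reduced VANGL2 in *KD2*.

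Keratin genes have close relatives, and how reads that fit several places were counted is not given in the sources used here. The members were therefore first compared with the other annotated transcripts in windows of 50 bases, the length of the sequenced reads. Of the 1909 windows of *Krt8*, 514 (26.9%) were also found in *Krt8-ps*, a processed pseudogene at chr7:23357125-23358069 (GRCm38, plus strand), whose 945 bases were 98.6% identical to the *Krt8* coding sequence. For *Krt18*, 10 of 1388 windows (0.72%) were shared, 5 with the processed pseudogene *Gm5200* and 5 with *Gm17847*. *Gm5200* was 92.3% identical to the *Krt18* coding sequence over 1240 bases. *Krt6a* had the most shared sequence, with 57.2% of its windows in other genes, 40.2% in the neighbouring *Krt6b* alone. The stretches below show how far a read can fail to tell each pair apart: each begins inside the longest identical run in the coding sequence, of 299 bases for *Krt8* and *Krt8-ps*, 54 for *Krt18* and *Gm5200* and 280 for *Krt6a* and *Krt6b*, and runs past its end. Capitals mark the letters that differ between the members of a pair, and each stretch lies in 1 exon.
Krt8, chr15:101999441-101999525 (minus strand): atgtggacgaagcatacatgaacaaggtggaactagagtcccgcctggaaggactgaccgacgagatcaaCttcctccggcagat
Krt8-ps, chr7:23357738-23357822 (plus strand): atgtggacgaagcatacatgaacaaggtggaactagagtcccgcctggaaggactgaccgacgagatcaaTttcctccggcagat
Krt18, chr15:102031353-102031421 (plus strand): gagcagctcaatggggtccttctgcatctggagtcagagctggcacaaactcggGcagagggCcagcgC
Gm5200, chr13:117458049-117458117 (minus strand): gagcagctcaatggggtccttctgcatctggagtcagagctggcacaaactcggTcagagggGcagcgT
Krt6a, chr15:101693921-101694005 (minus strand): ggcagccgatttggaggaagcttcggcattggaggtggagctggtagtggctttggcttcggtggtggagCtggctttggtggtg
Krt6b, chr15:101679896-101679980 (minus strand): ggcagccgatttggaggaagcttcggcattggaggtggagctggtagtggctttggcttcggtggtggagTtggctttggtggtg

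Few reads were assigned to the pseudogenes. *Krt8-ps* had 12, 18 and 9 counts in *WT*, 28, 23 and 19 in *KD1* and 47, 40 and 27 in *KD2*, which was 0.255% to 0.737% of the *Krt8* counts of the same culture. *Gm17836*, a further *Krt8*-like pseudogene, and *Gm5200*, *Gm17847* and *Gm7943*, which resemble *Krt18*, had 0 counts in all 9 cultures. *Krt8-ps* had log2 fold changes of 0.59 in *KD1* (adjusted p = 0.089) and 1.34 in *KD2* (adjusted p = 0.00043). When all pseudogene counts were added to their parents, the log2 fold change of *Krt8* was 0.17 in *KD1* and 0.77 in *KD2*, and that of *Krt18* was 0.71 and 0.13, so no direction or call of either gene moved. Any reads left out in counting because they fit several places are not in these sums. The sums therefore cannot show how many reads were shared.

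The 9 members together took 0.458% ± 0.0308 of all counts in *WT* (mean ± SD, n = 3), 0.537% ± 0.00153 in *KD1* and 0.306% ± 0.0412 in *KD2*. The cultures of the 3 lines did not overlap in this share, which ran from 0.422% to 0.478% in *WT*, from 0.536% to 0.538% in *KD1* and from 0.273% to 0.352% in *KD2*. These 9 genes held 97.8% of the counts of all 53 annotated keratin genes in *WT*, 96.6% in *KD1* and 98.3% in *KD2*. Levels of different genes are compared here as CPM per kilobase of exon. On that scale *Krt5* (963 ± 63.1) and *Krt14* (868 ± 51.5) were highest in *WT*, with overlapping cultures, followed by *Krt17* (419 ± 21.1). *Krt18* (86.6 ± 9.38) and *Krt8* (80.4 ± 10.96) came next, also with overlapping cultures, ahead of *Krt6a* (15.0 ± 2.89), *Krt7* (10.0 ± 1.01) and *Krt15* (0.176 ± 0.0238). *Krt19*, a type I keratin of simple and luminal epithelium, had 0 counts in every culture, which allows a level of up to 0.154 CPM in any library, and it was not tested. The place of *Krt7* depends on the length used for it. Its annotated exons cover 7049 bases, and with the mean length of its transcripts its *WT* level would be 37.9 CPM per kilobase, above *Krt6a*.

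**Figure D1:**
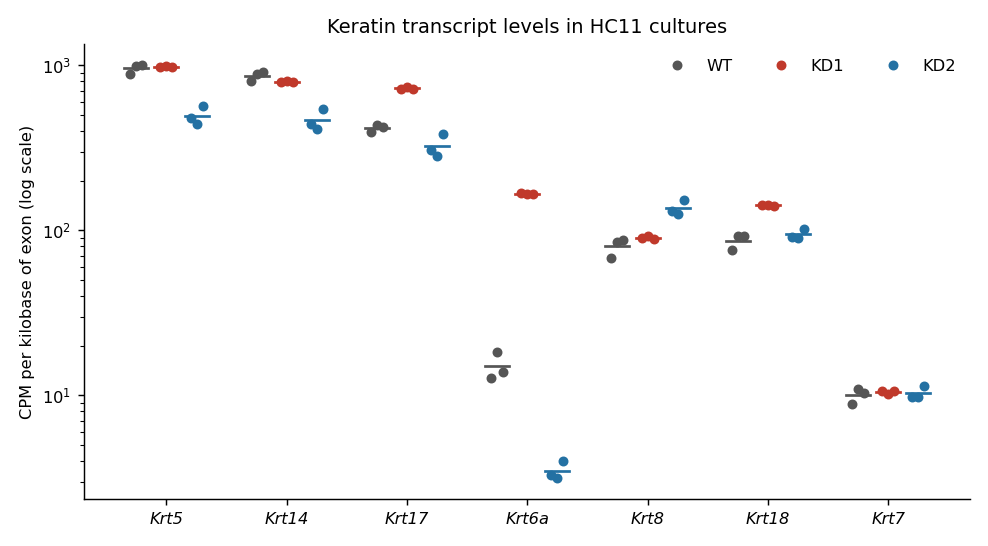
Level of 7 keratin genes in each culture, as CPM per kilobase of exon on a log axis, with points for cultures and bars for the mean of 3; *Krt15* and *Krt19*, near or at 0 counts, are not drawn. *Krt6a* separates the lines most, at 15.0 in *WT*, 167 in *KD1* and 3.47 in *KD2*, and *Krt7* lies near 10.0 in *WT*, 10.4 in *KD1* and 10.3 in *KD2*.

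In *KD1*, *Krt6a* was 11.1 times and *Krt17* 1.73 times the *WT* level and the luminal *Krt18* 1.64 times, while neither *Krt5* nor *Krt14* passed the test. In *KD2*, *Krt5* was 1.95-fold and *Krt14* 1.87-fold lower than in *WT*, *Krt6a* fell 4.37-fold, *Krt17* fell by 0.37 on the log2 scale, and *Krt8* rose 1.70-fold. Changes were tested by the quasi-likelihood method of edgeR, and p-values were adjusted after Benjamini and Hochberg over the 15253 genes that passed its expression filter. A gene is said to have changed at an adjusted p under 0.05, and called when its log2 fold change was also above 1 or below -1. Of the 8 members tested, 4 changed in *KD1*, 3 higher and 1 lower, where 56.9% of all genes tested changed (26.9% higher and 30.0% lower). In *KD2* 5 members changed, 1 higher and 4 lower, where 67.2% of all genes changed (34.0% higher and 33.3% lower). The number changed in *KD1* was 5 without *KD2* replicate 3. In *KD1* 2 members were called, against 16.8% of all genes, and in *KD2* 1 member, against 21.2%. The shares of members that changed or were called were thus near those of all genes. The median log2 fold change of the 8 members was 0.11 in *KD1* and -0.16 in *KD2*, against -0.03 and 0.01 over all genes tested. *Krt15* was tested only because its *KD2* counts passed the filter, and without it 3 of 7 members changed in *KD1* and 5 of 7 in *KD2*, with medians of 0.17 and -0.37. *WT* cultures served both comparisons. In these bulk samples, fewer cells that express a keratin and less of its RNA per cell cannot be told apart.

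**Figure D2:**
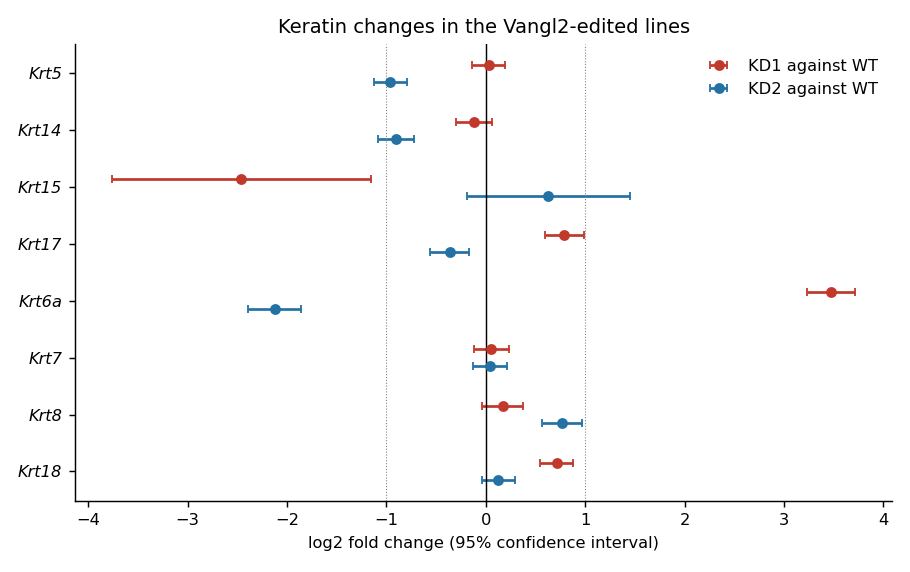
Log2 fold change of the 8 tested keratin genes in *KD1* and *KD2* against *WT*, with 95% confidence intervals from the edgeR fit and dotted lines at -1 and 1. *Krt6a* lies at 3.47 in *KD1* and -2.13 in *KD2*, and both intervals of *Krt7* include 0.

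*Krt5* (ENSMUSG00000061527, chr15:101707070-101712898, minus strand, GRCm38) encodes the type II keratin of basal cells. It was measured at 1958, 2166 and 2221 CPM in *WT*, at 2140.0, 2194 and 2138 in *KD1*, and 1057, 966 and 1239 in *KD2*. Every *KD2* culture was below every *WT* and *KD1* culture, and *KD1* lay within the range of *WT*. The log2 fold change in *KD2* was -0.96 (SE 0.0787, adjusted p = 1.3e-07), just inside the limit for a call, and it was -1.02 without *WT* replicate 1 and -1.04 without *KD2* replicate 3, which brings the number of members called in *KD2* from 1 to 2. In *KD1* it was 0.03 (95% interval -0.14 to 0.20, adjusted p = 0.78).

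*Krt14* (ENSMUSG00000045545, chr11:100203162-100207548, minus strand) encodes the type I partner of KRT5 and lies on another chromosome. It stood at 1422, 1560.3 and 1593 CPM in *WT*, 1391, 1420.1 and 1401 in *KD1*, and 779, 722 and 952 in *KD2*. The 3 *KD2* cultures were far below the rest, and the *KD1* cultures were all below *WT*, the highest of them by a margin smaller than the spread within *WT*. *Krt14* fell in *KD2* (log2 fold change -0.90, SE 0.0841, adjusted p = 4.7e-07) and did not pass the test in *KD1* (-0.12, 95% interval -0.30 to 0.06, adjusted p = 0.24). Over the 9 cultures, the log2 CPM of *Krt5* and *Krt14* had a Pearson r of 0.99, where the points share 3 lines and the same libraries. The per-length ratio of *Krt5* to *Krt14*, which does not depend on the scaling of libraries, was 1.11 ± 0.00711 in *WT*, 1.23 ± 0.00770 in *KD1* and 1.07 ± 0.0223 in *KD2*, with no overlap between lines. As *Krt14* shares 13.9% of its windows with other genes, mainly *Krt16*, and *Krt5* shares 12.2%, part of a small difference of this kind could lie in how reads were assigned, which was not tested. The ratio also moves with the transcript length used: with the mean length of annotated transcripts it would be 0.89 in *WT*, 0.986 in *KD1* and 0.855 in *KD2*.

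*Krt15* (ENSMUSG00000054146, chr11:100131758-100135928, minus strand) encodes a type I keratin of basal epithelial cells and was barely detected. It had 7, 7 and 6 counts in *WT*, 3, 0 and 1 in *KD1* and 12, 15 and 9 in *KD2*, and it passed the expression filter only through the *KD2* cultures. All *KD1* libraries were at or under the floor of 3 counts. From summed counts, *WT* was 5.95 times *KD1* (exact counting interval 1.99 to 23.9) and *KD2* was 1.56 times *WT* (0.878 to 2.84). The edgeR test gave log2 fold changes of -2.46 in *KD1* (SE 0.604, adjusted p = 0.0032) and 0.63 in *KD2* (95% interval -0.19 to 1.45, adjusted p = 0.16), the latter on the group that let the gene through the filter. Without *KD1* replicate 1, which holds 3 of the 4 counts, the value in *KD1* was -3.63.

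*Krt17* (ENSMUSG00000035557, chr11:100256217-100261029, minus strand) encodes a type I keratin of basal and activated epithelium. Its levels were 614, 677 and 659 CPM in *WT*, 1119.8, 1140.2 and 1113 in *KD1*, and 477, 439 and 597 in *KD2*. All *KD1* cultures were above and all *KD2* cultures below *WT*, with *KD2* replicate 3 close to *WT* replicate 1. *Krt17* rose in *KD1* (log2 fold change 0.79, SE 0.0894, adjusted p = 4e-06) and fell in *KD2* (-0.37, SE 0.0892, adjusted p = 0.0024). The per-length ratio of *Krt17* to *Krt14* was 0.483 ± 0.0125 in *WT*, 0.908 ± 0.00627 in *KD1* and 0.698 ± 0.0113 in *KD2*. It was thus higher in both *KD* lines than in *WT*, since in *KD2* *Krt14* was lower by more than *Krt17* was.

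*Krt6a* (ENSMUSG00000058354, chr15:101689910-101694307, minus strand) encodes a type II keratin that is induced in wounded and hyperproliferative epithelium, and it differed between lines by more than any other member. It was measured at 31.0, 44.2 and 33.6 CPM in *WT*, 408, 403 and 403 in *KD1*, and 7.96, 7.62 and 9.63 in *KD2*. The groups were far apart, with the lowest *KD1* culture above the highest *WT* culture and the highest *KD2* culture below the lowest *WT* culture. The log2 fold change was 3.47 in *KD1* (SE 0.112, adjusted p = 7.2e-12) and -2.13 in *KD2* (SE 0.126, adjusted p = 5e-09). Its paralogs *Krt6b*, *Gm5478* and *Gm5414* share sequence with it, and with their counts added, an alternative chosen after seeing the data, the values were 3.35 in *KD1* and -2.08 in *KD2*. Relative to *Krt5* per length, *Krt6a* made up 0.0156 in *WT*, 0.170 in *KD1* and 0.00702 in *KD2*. *Krt6a* thus ranked above *Krt18* and *Krt8* in *KD1*, where its 3 cultures did not overlap with theirs, and below *Krt7* in *KD2*.

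*Krt8* (ENSMUSG00000049382, chr15:101996698-102004482, minus strand) and *Krt18* (ENSMUSG00000023043, chr15:102028180-102032027, plus strand) encode the type II and type I partners of the luminal pair and lie 23.7 kb apart, next to each other in the type II keratin cluster. *Krt8* was at 133, 168 and 172 CPM in *WT*, 177, 179.9 and 174 in *KD1*, and 257, 245 and 301 in *KD2*. *Krt18* was at 109, 132 and 132 CPM in *WT*, 205, 205 and 202 in *KD1*, and 132, 129 and 147 in *KD2*. The lines thus differed in which partner was high: *Krt8* was highest in *KD2* and *Krt18* in *KD1*, each without overlap with the other lines. *Krt8* rose in *KD2* (log2 fold change 0.76, SE 0.0947, adjusted p = 7.4e-06) and *Krt18* rose in *KD1* (0.71, SE 0.0773, adjusted p = 2.8e-06). *Krt18* in *KD2* did not pass the test (0.13, 95% interval -0.04 to 0.29, adjusted p = 0.16) but did when counts were scaled to library size alone (0.24, adjusted p = 0.016), a scaling that moves the median of all genes in *KD2* by 0.11. *Krt8* in *KD1* did not pass it either (0.17, 95% interval -0.04 to 0.37, adjusted p = 0.15), although its *KD1* cultures were all above *WT*. Without *KD2* replicate 3, whose spread enters the shared fit, it was 0.19 with an adjusted p of 0.027, and without *WT* replicate 1 it was 0.06 with an adjusted p of 0.56.

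The per-length ratio of *Krt8* to *Krt18* was 0.895, 0.929 and 0.955 in *WT*, 0.634, 0.644 and 0.634 in *KD1* and 1.43, 1.39 and 1.50 in *KD2*. In *KD1* there was less *Krt8* than *Krt18* RNA per length and in *KD2* more, and no culture of one line reached the range of another. *Krt8* shares 29.7% of its windows with other genes and *Krt18* 0.72%. The level of the ratio, and on which side of 1 it lies, could therefore depend on how reads were assigned, which was not tested. An exact permutation test of 3 against 3 cultures cannot give a p below 0.10, so none was run on ratios. In contrast to the single pairs, the sum of all type II over all type I keratin genes per length differed by less, with 0.774 ± 0.0122 in *WT*, 0.749 ± 0.00229 in *KD1* and 0.728 ± 0.0169 in *KD2*, although its cultures did not overlap between lines either.

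**Figure D3:**
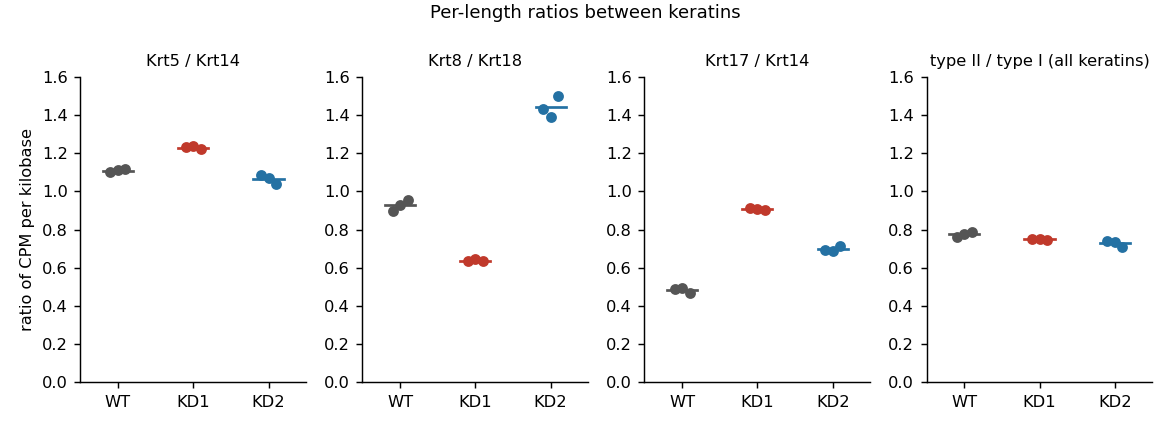
Per-length ratios between keratin genes in each culture, with points for cultures, bars for the mean of 3 and a linear axis from 0. The ratio of *Krt8* to *Krt18* has a mean of 0.926 in *WT*, 0.637 in *KD1* and 1.44 in *KD2*, while that of all type II to all type I keratin genes lies between 0.709 and 0.787 in all cultures.

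*Krt7* (ENSMUSG00000023039, chr15:101411043-101430313, plus strand) encodes a type II keratin of simple and ductal epithelium. It stood at 62.9, 76.6 and 72.8 CPM in *WT*, 74.8, 71.5 and 74.6 in *KD1*, and 68.9, 69.2 and 80.5 in *KD2*, so that the cultures of all lines overlapped. The log2 fold change was 0.06 in *KD1* (95% interval -0.12 to 0.23, adjusted p = 0.58) and 0.04 in *KD2* (-0.13 to 0.21, adjusted p = 0.68). Its neighbour in the genome in this set, *Krt6a*, lies 260 kb away and was the member that moved most. *Krt19* (ENSMUSG00000020911, chr11:100140810-100148665, minus strand) lies 4.88 kb from *Krt15*, and the 0 counts given above leave HC11 cells without a measured level of this luminal marker.

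The makeup of the keratin pool followed from these values. *Krt5* and *Krt14* made up 75.0% ± 0.467 of the per-length sum of the 9 members in *WT*, 61.1% ± 0.165 in *KD1* and 62.7% ± 0.239 in *KD2*. *Krt6a* and *Krt17* held 17.8% ± 0.480 in *WT*, 30.6% ± 0.0965 in *KD1* and 21.4% ± 0.565 in *KD2*. The luminal members *Krt7*, *Krt8* and *Krt18* held 7.23% ± 0.424, 8.32% ± 0.0682 and 15.8% ± 0.654. The basal pair thus took a smaller share in both *KD* lines, mostly against *Krt6a* and *Krt17* in *KD1* and mostly against the luminal members in *KD2*. Per length, there was 12.1 ± 0.938 times as much *Krt5* as *Krt8* RNA in *WT*, 10.9 ± 0.0883 times in *KD1* and 3.62 ± 0.0830 times in *KD2*.

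The lines were also compared directly, which uses no *WT* culture in the fold change. Of the 8 members tested, *Krt15* included, 7 passed the test between *KD2* and *KD1*, 2 higher and 5 lower in *KD2*, where 67.8% of all genes did (34.8% higher and 33.0% lower). *Krt6a* was 48.5-fold lower in *KD2* than in *KD1* (log2 fold change -5.60, adjusted p = 1.4e-13). *Krt17* (-1.16, adjusted p = 5.6e-08), *Krt5* (-0.99, adjusted p = 7.2e-08), *Krt14* (-0.78, adjusted p = 1.6e-06) and *Krt18* (-0.58, adjusted p = 1.2e-05) were lower as well. *Krt8* (0.60, adjusted p = 6.5e-05) was higher. *Krt15* stood at 3.09, which is given as a description with no test, since the gene entered the fit only through the *KD2* cultures, where it is high. It rests on 4 counts in *KD1*, and its value was 4.26 without *KD1* replicate 1. *Krt7* did not pass the test (-0.02, 95% interval -0.19 to 0.16, adjusted p = 0.87). Of all genes, 23.3% were called, and of the members *Krt6a* and *Krt17*, beside *Krt15*. *Krt5*, at -0.99, lay at the limit, and with it the number called rose from 3 to 4 without *KD2* replicate 3 (-1.09), *KD1* replicate 1 (-1.002) or *KD1* replicate 3 (-1.004). It was also 4 with DESeq2 size factors (*Krt5* at -1.0007), the DESeq2 Wald test (-1.007) and no filter beyond 1 count (-1.03). With at least 10 counts required in every culture, where *Krt15* was not tested, 2 were called. Without *Krt15*, 6 of 7 members differed and 2 were called. The cultures did not overlap for 7 of the 8 members, where this was so for 71.6% of all genes, and for 6 of 8 in each comparison with *WT*, where it was so for 68.8% in *KD1* and 67.9% in *KD2*.

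Since each *KD* line is a clone, the chromosomes of the keratin clusters were also examined. The type II members, with *Krt18*, lie on chromosome 15 and the other type I members on chromosome 11. Tested genes without keratins had a median log2 fold change of -0.16 in *KD1* and -0.17 in *KD2* on chromosome 15, and of 0.15 and 0.10 on chromosome 11. Within 1000 kb of the members, the median was -0.13 and -0.17 for 45 genes on chromosome 15 and 0.34 and 0.14 for 41 genes on chromosome 11. Of the 41 genes on chromosome 11, 19 rose and 5 fell in *KD1*, and 20 rose and 6 fell in *KD2*. Of the 45 on chromosome 15, 10 rose and 17 fell in *KD1*, and 11 rose and 21 fell in *KD2*. Over all genes tested, 26.9% rose and 30.0% fell in *KD1*, and 34.0% and 33.3% in *KD2*. *Krt14* and *Krt17*, which lie in 1 cluster on chromosome 11, had -0.12 and 0.79 in *KD1* and -0.90 and -0.37 in *KD2*. The part of the chromosomes in the keratin values was not tested.

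Of the 44 other keratin genes of the table, 8 passed the filter, 28 had at most 3 counts in any culture and 15 of these had none. In *KD1* 3 of the 8 rose and 2 fell, where 56.9% of all genes changed, and in *KD2* 2 rose and 5 fell, where 67.2% did. *Krt87*, higher in *KD2*, had passed the filter only through that line. *Krt16*, the type I partner of KRT6A, rose by 1.46 on the log2 scale in *KD1* (adjusted p = 1.2e-07) and fell by 1.82 in *KD2* (adjusted p = 5.6e-08), and *Krt6b* rose by 2.68 (adjusted p = 3e-10) and fell by 1.90 (adjusted p = 5.4e-07). Both directions were those of *Krt6a*, with which *Krt6b* shares sequence as described above. *Krt90* had 25, 40 and 32 counts in *WT*, 1165, 1126 and 1098 in *KD1* and 8, 7 and 4 in *KD2*, with log2 fold changes of 4.87 (adjusted p = 1.1e-13) and -2.53 (adjusted p = 4e-07). *Krt79*, known from the ducts of hair follicles, fell in both lines, with log2 fold changes of -3.20 in *KD1* (adjusted p = 5.3e-08) and -1.78 in *KD2* (adjusted p = 3.7e-06).

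Keratin filaments are anchored to neighbouring cells by desmosomes and to the basement membrane by hemidesmosomes. Of 24 genes of these junctions, 19 were tested. In *KD1* 11 of the 19 rose and 4 fell, where 26.9% of all genes rose and 30.0% fell, and the median log2 fold change was 0.28, against -0.03 over all genes. In *KD2* 4 rose and 12 fell, where 34.0% of all genes rose and 33.3% fell, and the median was -0.27, against 0.01. *Col17a1*, a hemidesmosome collagen, rose by 1.00 in *KD1* (adjusted p = 8.7e-08) and fell by 1.71 in *KD2* (adjusted p = 5e-10). *Dsc2*, a desmosomal cadherin, rose by 1.53 in *KD1* (adjusted p = 7.1e-10) and fell by 1.28 in *KD2* (adjusted p = 8.8e-09). *Dsg3*, a desmosomal cadherin of stratified epithelium, fell by 1.64 in *KD2* (adjusted p = 3e-10) and was at -0.13 in *KD1* (adjusted p = 0.12). *Dsg1b*, of the same family, fell in both, to -1.34 in *KD1* (adjusted p = 0.00056) and -5.70 in *KD2* (adjusted p = 1.2e-07), where it had 1, 3 and 0 counts.

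**Figure D4:**
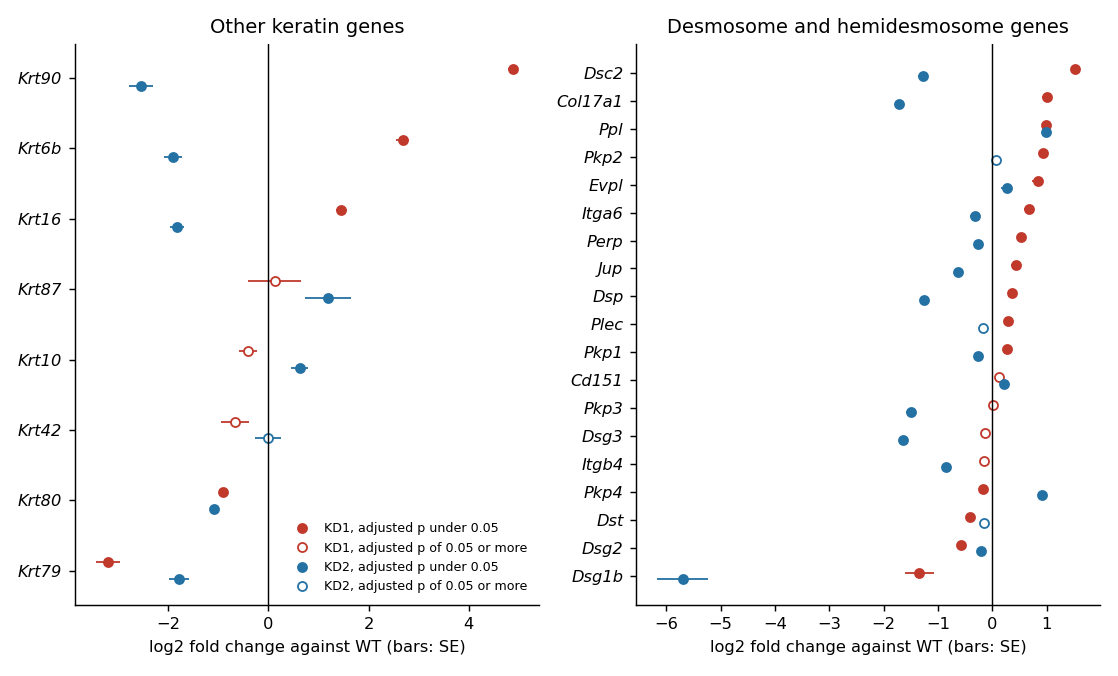
Log2 fold change against *WT* of the 8 other tested keratin genes (left) and 19 tested desmosome and hemidesmosome genes (right) in *KD1* and *KD2*, with bars for the SE and filled points for an adjusted p under 0.05. The median of the junction genes is 0.28 in *KD1* and -0.27 in *KD2*.

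Other intermediate filament genes were examined beside the keratins. Of 15, 9 were tested. In *KD1* 2 of the 9 rose and 3 fell, and in *KD2* 5 rose and 2 fell, where 56.9% and 67.2% of all genes changed. *Des*, *Prph* and *Bfsp1* passed the filter only through the line where each is high, so their values are descriptions. The counts that rose include *Bfsp1* in *KD1* and *Des* and *Prph* in *KD2*, and are no test to that extent. *Vim*, the filament protein of mesenchymal cells, was at 145 ± 27.7 CPM in *WT*, 18.3 ± 0.544 in *KD1* and 1091 ± 98.6 in *KD2*, so it fell by 2.99 on the log2 scale in *KD1* (adjusted p = 1e-10) and rose by 2.91 in *KD2* (adjusted p = 1.3e-10), opposite to *Krt6a* and *Krt17* in each line. *Des*, the muscle filament protein, had at most 3 counts in *WT* and *KD1* and 44, 68 and 46 in *KD2*. *Nes* fell by 2.59 in *KD2* (adjusted p = 4.1e-10) and rose by 0.65 in *KD1* (adjusted p = 2.5e-05). *Bfsp1* had 3, 2 and 5 counts in *WT* and 17, 21 and 20 in *KD1*.

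Of 20 transcription factors known to act on keratin genes, all were tested. In *KD1* 10 of them rose and 6 fell, where 56.9% of all genes changed, with a median log2 fold change of 0.68 against -0.03 over all genes. In *KD2* 4 rose and 13 fell, where 67.2% changed, with a median of -0.37 against 0.01. *Ehf*, an ETS factor of epithelial cells, rose by 5.54 in *KD1* (adjusted p = 1.4e-13) and by 0.57 in *KD2* (adjusted p = 0.013). *Foxa1*, a luminal factor, had 3, 8 and 1 counts in *WT*, 83, 83 and 76 in *KD1* and 5, 2 and 2 in *KD2*. *Elf5*, a factor of alveolar luminal cells, had 4, 4 and 7 counts in *WT*, 22, 12 and 6 in *KD1* and 35, 59 and 36 in *KD2*. Each passed the filter only through the line where it is highest, so no test is given for either. The counts that rose, given above, include *Foxa1* in *KD1* and *Elf5* in *KD2*, and the medians include both genes. To that extent they are descriptions. *Tfap2c*, a trophoblast and mammary AP-2 factor, fell in both lines, with -1.40 in *KD1* (adjusted p = 1.4e-07) and -2.26 in *KD2* (adjusted p = 2.4e-09).

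The labelled cell type was checked against markers. Of 14 basal markers, 8 had over 3 counts in every culture, as had 10 of 14 luminal and 5 of 6 epithelial markers, and of the luminal ones *Krt19* and *Pgr* had at most 3 counts in every culture. Without the keratins examined here, the summed level of the basal markers ranged from 450 to 478 CPM in *WT*, from 1433 to 1529 in *KD1* and from 250.2 to 264 in *KD2*, and that of the luminal markers from 168 to 185, from 930.1 to 943 and from 166 to 195. The sums in *KD1* were mostly those of single genes, *Igfbp3* (142 CPM in *WT* and 1042 in *KD1*) for the basal and *Cldn4* (22.0 and 632) for the luminal list. Of the 10 basal markers that are no members, 2 rose and 3 fell in *KD1*, where 26.9% of all genes rose and 30.0% fell. *Trp63* (log2 fold change 0.73) and *Igfbp3* (2.88) rose in *KD1*, and *Oxtr* (-6.56), *Myh11* (-1.84) and *Snai2* (-0.28) fell. *Oxtr* had 142, 222 and 147 counts in *WT* and 2, 3 and 1 in *KD1*. *Myh11* passed the filter only through *WT* and *KD2* cultures, so its fall is a description. In *KD2* 3 rose and 5 fell, where 34.0% of all genes rose and 33.3% fell. *Acta2*, *Mylk* and *Cnn1*, the contractile genes that define basal myoepithelial cells, had at most 6 counts in *WT* and at most 9 in *KD1*. In *KD2* they had 33 to 43, 204 to 261 and 69 to 95 counts. They are the 3 that rose there and passed the filter only through that line, so their rise is a description. The contractile genes *Tagln* (log2 fold change 0.26, adjusted p = 0.43) and *Myh11* (-0.31, adjusted p = 0.48) did not pass the test in *KD2*, and *Trp63* (-0.96), *Oxtr* (-0.94), *Lgals7* (-2.61), *Snai2* (-0.88) and *Igfbp3* (-0.57) fell there. Of the 10 luminal markers that are no members, 8 were tested. Against the same shares of all genes, 5 rose and 0 fell in *KD1*, and 3 rose and 2 fell in *KD2*. The 5 were *Cldn3* (0.75), *Cldn4* (4.85), *Gata3* (1.22), *Prlr* (1.77) and *Foxa1*. *Foxa1*, and *Elf5* among the 3 in *KD2*, passed the filter only through the line where each rose. Of the 4 epithelial markers that are no members, 2 rose and 1 fell in *KD1*, and 0 rose and 4 fell in *KD2*. The log2 fold changes in *KD2* were -0.36 for *Epcam*, -0.69 for *Cdh1*, -1.28 for *Esrp1* and -1.92 for *Cldn7*. *Cldn7* had 5, 8 and 2 counts there. Markers of other cell types were low. Of 7 fibroblast markers, 2 had over 3 counts in every culture and *Lum* and *Thy1* had at most 3 in any, with a summed level of 16.4 to 22.1 CPM in *WT*, 7.98 to 9.96 in *KD1* and 25.9 to 27.3 in *KD2*. Of 4 endothelial markers 1 was present in every culture, with *Kdr* and *Tie1* at most at 3 counts and a sum of 2.00 to 2.49, 4.87 to 5.58 and 1.33 to 1.82 CPM. Of 6 leukocyte markers 1 was present in every culture, with *Ptprc*, *Adgre1*, *Cd3e* and *Cd79a* at most at 3 counts and a sum of 3.02 to 5.99, 6.93 to 8.37 and 4.81 to 6.09 CPM. Of 3 adipocyte markers 0 were, with *Adipoq* and *Plin1* at most at 3 counts and a sum of 0.0976 to 0.256, 2.08 to 2.90 and 0.0491 to 0.565 CPM. The part of these markers in the keratin results was not tested.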

How the data were processed

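Poly-A RNA of 9 HC11 cultures was sequenced as paired reads of 50 bases. The deposited values are raw counts per gene, made by the authors after trimming and removal of reads under an average quality of 20 with fastp, mapping to GRCm38 with HISAT2 and counting over GENCODE exons with featureCounts. Whether counting used strand, and how it treated reads with several places, is not given in the sources used here. The 9 keratins overlap 5 genes on the other strand (in *Krt5*, *Krt6a*, *Krt7* and *Krt8*), whose reads cannot be told apart without strand.

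Counts were tested with edgeR 4.0.16 in R 4.3.3 (quasi-likelihood, TMM scaling, filter by expression on the 3 groups, 1 fit of all 9 cultures, Benjamini-Hochberg adjustment over 15253 genes), a routine that was tested on simulated data. In the simulation few genes changed, as many up as down and in 1 line only. It therefore did not check the scaling where most genes change, as here. Standard errors were derived from the F statistic. CPM are TMM-scaled, and means and SD are over 3 cultures. Lengths, positions and sequences came from a GENCODE release for GRCm38 (not the one named by the authors), which matched 53569 of the 55228 genes. 0 columns of the table lacked a culture. *KD* is the name in the paper of lines labelled as knockouts, and the labels state flash freezing where the methods state that there was none.

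The members and gene lists were chosen with earlier results of these data known. Named are all members, their copies with counts, *Vangl2*, and from each list up to 4 genes called in either line with the largest change; *Krt14* relatives, further genes of the lists and markers were added after their values were seen. Alternatives were other scalings, filters, DESeq2 1.42.0, the compared cultures alone, a replicate block, summed copies, other lengths and leaving out each culture. No sign was seen that replicate numbers pair cultures, which does not exclude a pairing. Deviations from group means had a mean r of 0.00116 for equal numbers (9 pairs, -0.0652 to 0.0789). For unequal numbers it was -0.00109 (18 pairs, -0.101 to 0.107).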

Additional observations from a re-analysis of the deposited data

Results flagged for a closer look

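For 7 members, *Krt15* with the limit given last, the effect against *WT* differed between the lines, by the direct edgeR test of *KD2* against *KD1* with Benjamini-Hochberg adjustment. The difference, in log2 as *KD2* minus *KD1*, was -5.60 for *Krt6a*, -1.16 for *Krt17*, -0.99 for *Krt5*, -0.78 for *Krt14*, -0.58 for *Krt18*, 0.60 for *Krt8* and 3.09 for *Krt15*. For *Krt6a* and *Krt17* the change against *WT* passed the test in both lines with opposite signs. For *Krt5*, *Krt14* and *Krt8* it passed in *KD2* and for *Krt15* and *Krt18* in *KD1*. *Krt15* passed the expression filter only through *KD2*, where it is high, and rests on 4 counts in *KD1*, so its difference is a description and not a test.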

How the results depend on the processing

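Counts of members changed stayed within 1.5 times under every alternative run. The number called in *KD1* was 1 in place of 2 with at least 10 counts required in every culture or with only the 6 compared cultures, where *Krt15* was not tested. The number called in *KD2* ranged from 1 to 2 when single cultures were left out. For values near 0 the sign turned. *Krt5* in *KD1* was -0.023 without *WT* replicate 1, in a range of -0.023 to 0.088 over single cultures left out. *Krt7* in *KD1* was -0.021 without *WT* replicate 1 (range -0.021 to 0.14), and in *KD2* -0.042 without it and -0.012 without *KD2* replicate 3 (range -0.042 to 0.12). *Krt7* in *KD2* against *KD1* was 0.11 by library size alone, 0.016 with the filter of 10 counts and 0.020 without *KD2* replicate 1 or 2 (range -0.086 to 0.020). *Krt8* in *KD1* passed the test in 3 alternatives, at 0.18 (adjusted p = 0.045) with no filter beyond 1 count, 0.21 (adjusted p = 0.02) with the 6 cultures and 0.19 (adjusted p = 0.027) without *KD2* replicate 3. The cause was not tested. No call of a member was lost or gained with a replicate block, under which *Krt6a* had 3.48 in *KD1*, and 2 members were called there.

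Per length, the ratio of *Krt5* to *Krt14* was 0.89 in *WT*, 0.986 in *KD1* and 0.855 in *KD2* by mean transcript length and 1.07, 1.19 and 1.03 by the longest coding transcript, and *Krt7* was at 37.9, 39.4 and 39.0 or at 17.3, 18.0 and 17.8 CPM per kilobase. Depth limits *Krt15* and *Krt19*, which lie near or under the floor of 3 counts. Single clones limit what the lines can say of *Vangl2*.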

Other observations

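Outside the keratin family, the gene whose log2 CPM over the 9 cultures was most like that of each member was taken from 9560 genes with a mean log2 CPM above 3. It was *Serinc2* for *Krt5* (Pearson r = 0.997), *Mars* for *Krt14* (0.997), *Tsku* for *Krt17* (0.999), *Fam83g* for *Krt6a* (0.999), *2310033P09Rik* for *Krt8* (0.996), *Rnase4* for *Krt18* (0.994), *Pkd2l2* for *Krt15* (0.978) and *Ppp2r5d* for *Krt7* (0.954). With 3 lines of 3 cultures and the same libraries behind every point, high values are a description of the line means. The value for *Krt15* also rests on few reads. *Fam83g* moved as *Krt6a* did but by less, with log2 fold changes of 1.63 in *KD1* and -0.94 in *KD2*, and *Tsku* had 0.91 and -0.40 where *Krt17* had 0.79 and -0.37.

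Among the members, the log2 CPM of *Krt6a* had r = 0.981 with *Krt17* and r = -0.942 with *Krt15* over the same 9 cultures. With the luminal *Krt18* it had r = 0.830, and with *Krt5* r = 0.792. *Krt17* had r = 0.871 with *Krt18*, and *Krt5* had r = -0.824 with *Krt8*. The luminal partners *Krt8* and *Krt18* had r = -0.019. These pairs were picked from all pairs of tested members. *Krt15* had 0 to 15 counts a culture and passed the filter only through *KD2*, so its r rests on few reads.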
